A study of Mus musculus with 4 samples.

Results

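The regions described here are 276 transcript clusters without a gene name that the array lists around Malat1, out of 265511 rows in the deposited table. A transcript cluster is the array's unit for a putative gene, and each has 1 summary value per array. The members are the rows of 2 stretches of consecutive cluster IDs to which the platform annotation gives no symbol. One run holds the rows of Ltbp3 and Slc25a45 and has 143 members, and the other holds the rows of Malat1 and Neat1 and has 133. Between the members stand 51 rows with 1 symbol in the Ltbp3 run and 53 in the Malat1 run, plus 3 and 4 rows with several symbols, and these serve as landmarks only. No row was chosen by its signal in the rule, but the ID ranges were set with earlier results of these arrays known.

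The hippocampus was taken from 2 Malat1 knockout and 2 wildtype mice, all untreated males of the C57BL/6 strain aged 3 months. Each animal was hybridized to its own Affymetrix mouse exon array, and the design text describes knockout and wildtype animals as littermates. The labels describe the RNA as coming from neurons, but name no sorting, so whole hippocampus was measured as far as they say. They do not state the allele or the deleted segment of Malat1. The labels name a labelling kit that copies RNA from its 3' end and yields antisense RNA, on an array whose probes address sense targets, so which strand a row reports on was not tested here.

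Malat1 is a long noncoding RNA that stays in the nucleus, gathers in speckles with splicing factors and is abundant in neurons. Its 3' end is cut off as a small tRNA-like RNA, mascRNA, which moves to the cytoplasm. Neat1, the next noncoding gene along the chromosome, is the RNA around which paraspeckles form. Transcript clusters without a name on such arrays were drawn from weaker evidence, such as single expressed sequence tags or predicted exons, and many lie inside introns or on the strand opposite a known gene.

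The order of the landmark rows followed the chromosome. In the Ltbp3 run, 50 of 51 landmark rows belong to genes of chromosome 19 in RefSeq's table of assembly GRCm38.p6, and 48 of the 49 steps from 1 such row to the next followed gene position. The exception was a row under the Neat1 name that sits between Ap5b1 and Rnaseh2c. In the Malat1 run it was 52 of 53 rows and 51 of 51 steps. Of the landmark rows whose gene has a strand in RefSeq's promoter table, 37 of 41 in the Ltbp3 run were on the plus strand and 37 of 40 in the Malat1 run were on the minus strand. Between Ltbp3 and Slc25a45, RefSeq's table places Malat1, the mascRNA gene, Neat1 and Frmd8, in this order. The 20 members between the Ltbp3 and Slc25a45 rows therefore stand, in row order, where the plus-strand run passes these genes. Positions of single members were not used here, and no member's own sequence was at hand.

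The start of Malat1 is printed as the fixed point between the runs. It covers chr19:5802623-5802922 of GRCm38.p6 on the minus strand, from RefSeq, with 250 bases before the transcript start in lower case and the first 50 transcribed bases in capitals.
Malat1: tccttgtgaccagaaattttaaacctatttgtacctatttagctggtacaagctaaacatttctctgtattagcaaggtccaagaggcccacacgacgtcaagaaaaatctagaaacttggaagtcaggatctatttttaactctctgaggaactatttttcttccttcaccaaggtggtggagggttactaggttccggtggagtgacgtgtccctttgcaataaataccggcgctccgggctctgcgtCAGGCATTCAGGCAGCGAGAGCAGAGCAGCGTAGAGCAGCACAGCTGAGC

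The labelled tissue and genotype were checked first. The Malat1 row read 8.53 and 8.70 in knockout arrays, against 11.19 and 11.25 in wildtype arrays on the log2 scale, which goes with the labels. The knockout values still stood at percentiles 97.1 and 97.5 of their arrays, and the source of this remaining signal was not tested. Markers of excitatory neurons (Slc17a7, 11.45 as the mean of the 4 arrays), of dentate granule neurons (Prox1, 9.77), of interneurons (Gad1, 8.17) and of astrocytes (Gfap, 8.52) were all measured, as were oligodendrocyte, microglial and endothelial markers. Of the choroid plexus markers, Ttr read 5.73 and 5.86 in knockout arrays, against 6.09 and 6.58 in wildtype arrays (-0.54), while Kcnj13 stood at -0.09 with overlapping groups. The part of such tissue in the members' values was not tested. The liver gene Alb read 5.77, close to the array medians of 5.59 to 5.63. Over all rows, the median absolute difference between 2 arrays was 0.160 in the knockout pair, 0.156 in the wildtype pair and 0.142 to 0.176 across genotypes, highest between knockout replicate 2 and wildtype replicate 1. Among the members it was 0.175 in the knockout pair, 0.178 in the wildtype pair and 0.180 to 0.216 across genotypes.

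A block of 5 adjacent members of the Ltbp3 run had far lower signal in knockout hippocampus. They carry the consecutive IDs 6867792 to 6867796 and lie between the Ltbp3 and Slc25a45 rows. Their signal was 3.25-, 4.18-, 3.78-, 9.88- and 12.9-fold lower in knockout arrays, in ID order. In tissue as a whole, fewer cells that make an RNA and less RNA per cell cannot be told apart. Values below are log2 signal, fold changes are knockout over wildtype, and intervals are 95% intervals from limma, a linear model with a variance shared in part across rows.

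Cluster 6867796 read 4.91 and 5.57 in knockout arrays, against 9.0 and 8.87 in wildtype arrays. Its log2 fold change was -3.69 ± 0.25 (SE), with an interval of -4.37 to -3.01. The groups are far apart, and the larger gap between arrays of 1 genotype is that between the knockout arrays.

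Its neighbour 6867795 read 4.85 and 5.30 in knockout arrays, against 8.54 and 8.22 in wildtype arrays. The log2 fold change was -3.30 ± 0.21 (SE; interval -3.89 to -2.72). In both clusters the knockout values lie below the median of their array, which was 5.59 and 5.63. The table holds no background or detection measure, so whether these knockout values exceed background was not tested. If they do not, 9.88- and 12.9-fold are lower limits of the difference.

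Cluster 6867794 read 6.15 and 5.91 in knockout arrays, against 8.26 and 7.64 in wildtype arrays. The log2 fold change was -1.92 ± 0.25 (SE; interval -2.59 to -1.24). Here the wildtype arrays disagree most, and even the lower of them lies well above both knockout arrays.

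The cluster between 6867792 and 6867794 in ID order read 7.13 and 7.05 in knockout arrays, against 9.13 and 9.17 in wildtype arrays, a log2 fold change of -2.06 ± 0.10 (SE; interval -2.34 to -1.79). Replicates of this row were close in both genotypes. The first of the adjacent rows, 6867792, read 5.85 and 5.65 in knockout arrays, against 7.54 and 7.36 in wildtype arrays, which is -1.70 ± 0.13 (SE; interval -2.07 to -1.33).

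These values stand at the far end of the whole table. Ranked by log2 fold change over all 265511 rows, the 5 clusters took ranks 1, 2, 4, 6 and 8 from the lowest, and the Malat1 row took rank 3 at -2.61 (interval -2.92 to -2.30). The remaining rows among the lowest 8 were 6901286 and 6855303, no members, whose knockout arrays disagreed. Cluster 6901286 read 7.25 and 9.70 in knockout arrays, against 10.47 and 10.40 in wildtype arrays. Cluster 6855303 read 8.32 and 11.62 in knockout arrays, against 12.00 and 11.78 in wildtype arrays. Read in ID order, the 5 clusters were also the only place in the table where adjacent rows were all over 2-fold lower or all over 2-fold higher. The other 117 rows over 2-fold lower and all 122 rows over 2-fold higher had no neighbour of their kind.

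**Figure D1:**
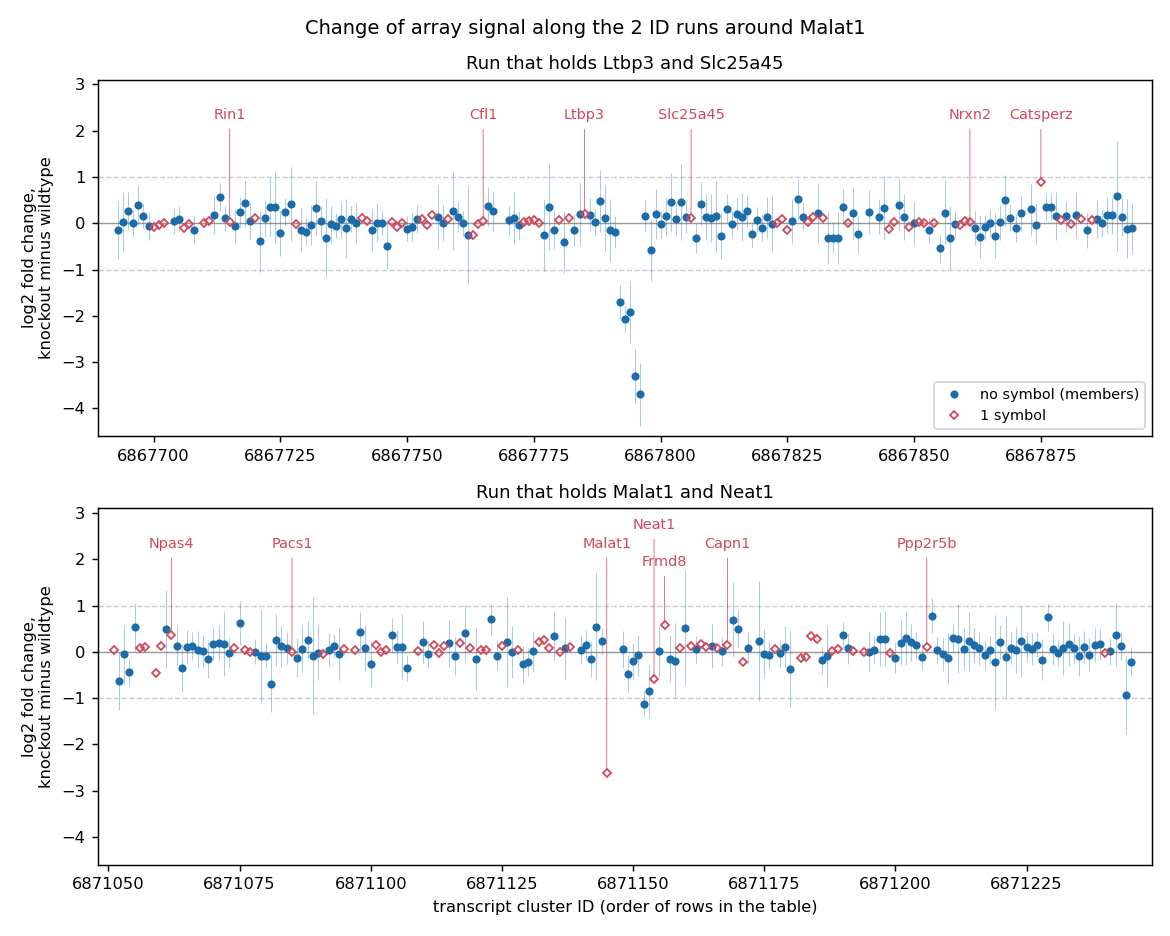
Log2 fold change (knockout minus wildtype, n = 2 arrays each) of each row against its cluster ID, for the run with Ltbp3 and Slc25a45 (top) and the run with Malat1 and Neat1 (bottom). Filled points are the 276 members with 95% limma intervals, open diamonds are rows with 1 symbol, and dashed lines mark 2-fold. The clusters 6867792 to 6867796 lie between -3.69 and -1.70, apart from the rows on both sides of them.

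In row order, the rows next to the low stretch showed no fall of its size. On the Ltbp3 side, cluster 6867791 read 4.57 and 4.79 in knockout arrays, against 4.84 and 4.90 in wildtype arrays (-0.19, interval -0.53 to 0.15). Beside it, 6867790 read 4.67 and 5.33 in knockout arrays, against 5.09 and 5.23 in wildtype arrays (-0.16). The lowest value of each knockout array was 4.17, so a fall as large as in the low stretch could not show in these rows. Where the stretch ends on that side was therefore not tested. On the other side, cluster 6867797 read 7.43 and 7.51 in knockout arrays, against 7.21 and 7.40 in wildtype arrays (0.16, interval -0.16 to 0.49). The row after it, 6867798, was lower again, at 5.89 and 5.40 in knockout arrays, against 6.45 and 6.02 in wildtype arrays. Its log2 fold change of -0.59 has an interval that includes 0 (-1.25 to 0.07).

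Of the 20 members between Ltbp3 and Slc25a45, 9 lay below 0 and 11 above, and their median was 0.06, so the low rows are a minority of the stretch. Cluster 6867799, a bright row there, read 10.04 and 10.54 in knockout arrays, against 10.05 and 10.12 in wildtype arrays (0.20, interval -0.34 to 0.74). Cluster 6867800 stood at -0.02 (interval -0.31 to 0.27). The highest value of the stretch was that of 6867788, which read 6.01 and 5.36 in knockout arrays, against 5.15 and 5.24 in wildtype arrays (0.49, interval -0.18 to 1.16). Members 6867786, 6867787, 6867789, 6867801 and 6867803 lay between 0.03 and 0.19, and 6867802 lay at 0.45. All 7 of these intervals, that of 6867788 included, hold 0.

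**Figure D2:**
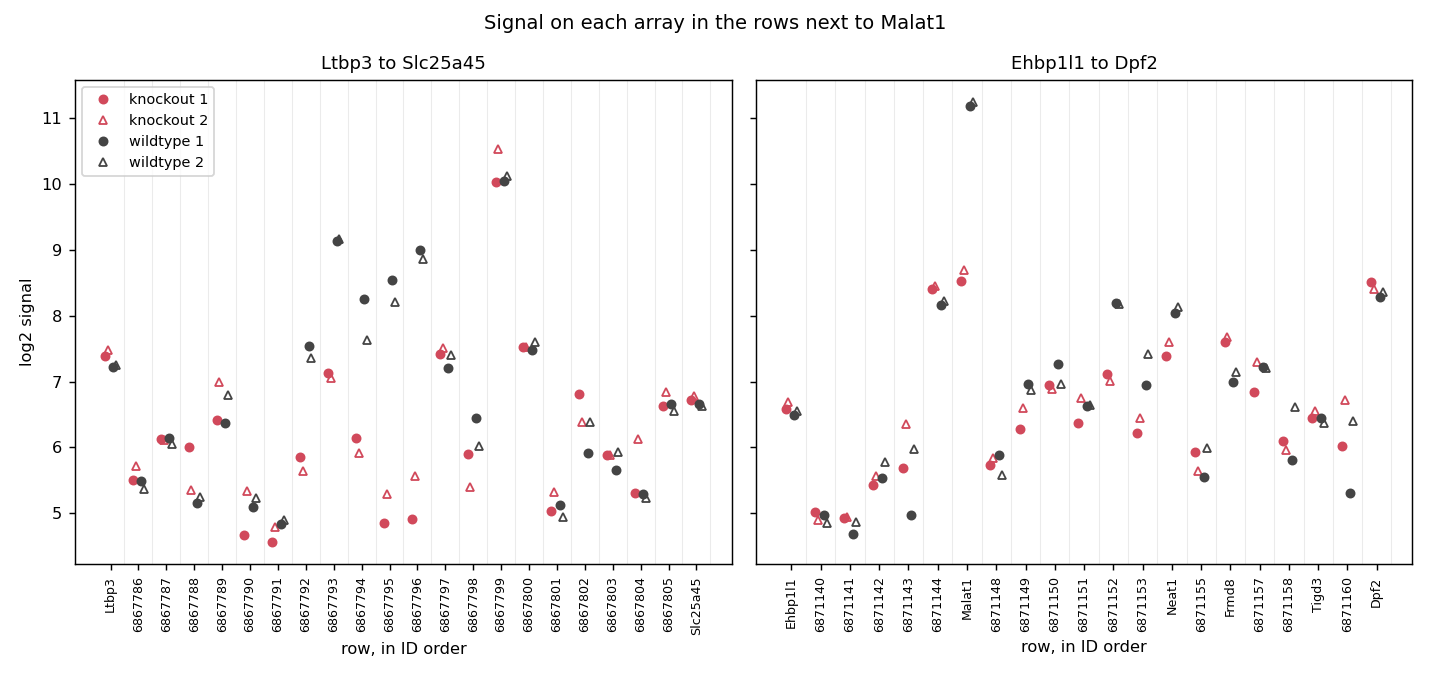
Log2 signal (y axis) on each of the 4 arrays for the rows from Ltbp3 to Slc25a45 (left) and from Ehbp1l1 to Dpf2 (right), in ID order, with knockout arrays in red and wildtype arrays in grey (rows with several symbols are left out). Red and grey points are widely separated at 6867792 to 6867796 and at Malat1, less so at 6871152 and 6871153, and intermixed or close in most other rows.

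On the Malat1 run, the 6 members between the Malat1 and Neat1 rows were the lowest group. Their median log2 fold change was -0.34, 5 of 6 lay below 0, and in 4 of 6 both knockout arrays were below both wildtype arrays. Over all rows, 51.5% lay above 0, and 15.7% had both knockout arrays below both wildtype arrays. Cluster 6871152 read 7.12 and 7.01 in knockout arrays, against 8.19 and 8.18 in wildtype arrays, and was 2.17-fold lower (-1.12 ± 0.11 (SE), interval -1.40 to -0.83). Replicates differed there by little in either genotype.

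The next row, 6871153, lies directly before Neat1 in ID order. It read 6.21 and 6.45 in knockout arrays, against 6.94 and 7.42 in wildtype arrays, which is -0.85 ± 0.21 (SE; interval -1.42 to -0.28). The Neat1 row itself read 7.38 and 7.60 in knockout arrays, against 8.04 and 8.14 in wildtype arrays (-0.59, interval -0.94 to -0.25). Between Malat1 and these rows, 6871149 read 6.28 and 6.60 in knockout arrays, against 6.96 and 6.88 in wildtype arrays (-0.48, interval -0.89 to -0.07). Clusters 6871150 (-0.19), 6871151 (-0.08) and 6871148 (0.05) had intervals that include 0.

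The members on the far side of Malat1 did not share this direction. Of the 5 members between Ehbp1l1 and Malat1, 4 lay above 0, with a median of 0.16. Cluster 6871144, next to the Malat1 row, read 8.41 and 8.45 in knockout arrays, against 8.16 and 8.23 in wildtype arrays (0.24, interval -0.04 to 0.51). The groups of this row do not overlap, and the gap is small. Cluster 6871143 stood at 0.55 with an interval of -0.61 to 1.70, its wildtype arrays being 4.98 and 5.98. The others were 6871141 (0.16), 6871140 (0.05) and 6871142 (-0.16), and 2 members further out, 6871135 and 6871137, stood at 0.35 and 0.08, all with intervals that include 0. Beyond Neat1, 6871155 stood at 0.01 and the 2 members between Frmd8 and Tigd3 at -0.14 and -0.19, while the Frmd8 row between them stood at 0.57.

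Over the whole table, 0 rows passed an adjusted p of 0.05 by limma (Benjamini-Hochberg, 0.0% of rows), the Malat1 row included, and so 0 of the 276 members did. The smallest adjusted p was 0.847, shared by Malat1 and each of the 5 clusters, and the smallest over all rows ran from 0.707 to 1.00 under the alternatives tried. Unadjusted limma p-values were 8.55e-05 for 6867796, 7.08e-05 for 6867795, 0.0012 for 6867794, 2.32e-05 for the cluster before it and 1.63e-04 for 6867792, against 1.44e-05 for Malat1. They were 3.33e-04 for 6871152 and 0.014 for 6871153. By unadjusted p the 5 clusters ranked 6, 4, 106, 2 and 8, in the same order, among all rows, and 6871152 ranked 13.

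Counts over the members were read against the same counts over all rows. Over 2-fold lower in knockout were 6 of 276 members (2.17%), and this was so of 0.0459% of all rows. All 6 lay in the 2 stretches described above, 5 between Ltbp3 and Slc25a45 and 1 between Malat1 and Neat1. The middle ID of the Ltbp3 run is 1 of these 5 clusters, and that of the Malat1 run is the Malat1 row. Both ID ranges were set with earlier results of these arrays known, so the excess over all rows is no independent support. Over 2-fold higher were 0 members, against 0.0459% of all rows. Over 1.5-fold lower were 11 members (3.99%; 1.06% of all rows), of which 8 lay in these stretches. Over 1.5-fold higher were 6 members (2.17%; 1.15% of all rows), of which 0 did.

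At an unadjusted p under 0.05, 14 members were lower (5.07%; 2.75% of all rows) and 11 were higher (3.99%; 3.14% of all rows). Both knockout arrays lay below both wildtype arrays in 45 members (16.3%), near the 15.7% of all rows, and above them in 61 (22.1%), against 17.7% of all rows. The genotype difference exceeded the larger gap between arrays of 1 genotype in 64 members (23.2%), against 21.1% of all rows. Separation of the groups was thus about as frequent downwards, and somewhat more frequent upwards, as in the table as a whole.

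**Figure D3:**
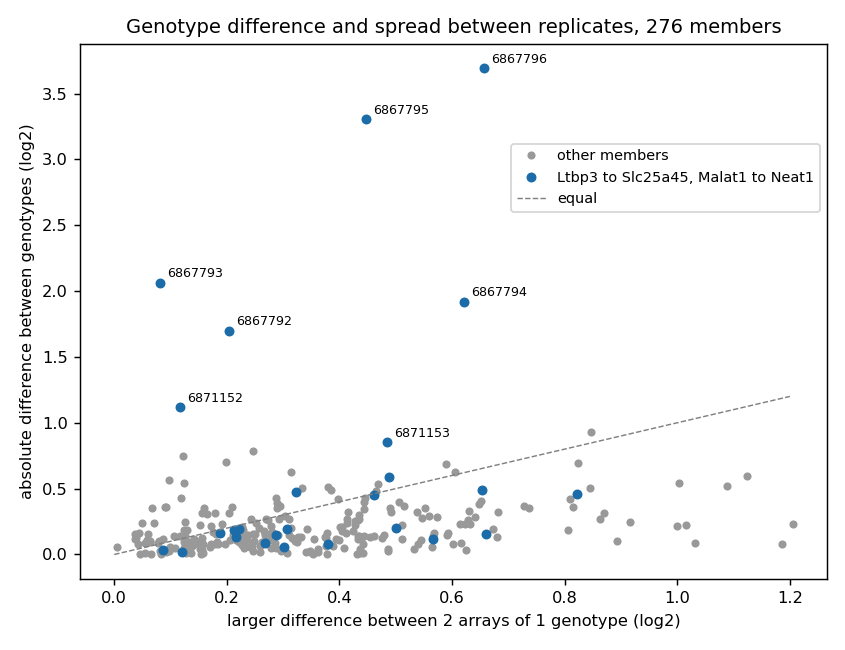
Absolute log2 difference between the genotype means (y axis) against the larger of the differences between the 2 knockout arrays and between the 2 wildtype arrays (x axis), 1 point per member, with members of the stretches Ltbp3 to Slc25a45 and Malat1 to Neat1 in blue. Most of the 276 members lie under the dashed line of equality, and the 6 members over 2-fold lower lie above it by the widest margins. The cluster 6871153 is labelled too.

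The members outside these 2 stretches number 250, and the 5 members between Ehbp1l1 and Malat1 are counted among them. The 2 stretches were singled out with their low rows known, so the split is a description only. The median log2 fold change of the 250 members was 0.07, within a range of -0.93 to 0.78. Of them, 157 of 250 (62.8%) lay above 0 and none was over 2-fold in either direction. Over all 276 members, 169 (61.2%) lay above 0 with a median of 0.06, against 51.5% and a median of 0.00 over all rows. Among the rows of the table with a mean signal in the same middle range as the members, 54% lay above 0. Among the 104 rows with 1 symbol in the same ID ranges, 75 (72.1%) lay above 0 with a median of 0.05. The members' median rests in part on knockout replicate 2 and wildtype replicate 1. In the Ltbp3 run it was 0.07 with all arrays, 0.02 without knockout replicate 2 and 0.02 without wildtype replicate 1, and in the Malat1 run 0.06, 0.03 and 0.04.

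The 3 clusters described next were among the highest in knockout, and all lie in the Malat1 run outside the stretches next to Malat1. Cluster 6871207, next to Ppp2r5b, which encodes a regulatory subunit of protein phosphatase 2A, read 6.32 and 6.56 in knockout arrays, against 5.59 and 5.73 in wildtype arrays (0.78, interval 0.41 to 1.16). Cluster 6871229 in the same stretch read 6.67 and 6.55 in knockout arrays, against 5.86 and 5.86 in wildtype arrays (0.75, interval 0.46 to 1.04). Cluster 6871123, before the transcription factor gene Ovol1, read 6.49 and 6.39 in knockout arrays, against 5.64 and 5.84 in wildtype arrays (0.70, interval 0.37 to 1.04).

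In these 3 clusters the groups do not overlap, and unadjusted limma p-values were 0.0041, 0.0017 and 0.0040 at an adjusted p of 0.847 each. Clusters 6871169 (0.70), 6867890 (0.59), 6871143 (0.55) and 6871160 (0.52) each had wildtype replicate 1 well below wildtype replicate 2. Cluster 6871169, next to the protease gene Capn1, read 6.60 and 6.60 in knockout arrays, against 5.49 and 6.32 in wildtype arrays. Without wildtype replicate 2, these 4 clusters are over 2-fold higher in knockout, and without wildtype replicate 1, they range from -0.02 to 0.28. The remaining members among the 10 highest were 6871075 (0.62), 6867713 (0.57) and 6871055 (0.54).

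Among low members away from Malat1, 6871244 at the end of the Malat1 run read 8.24 and 8.29 in knockout arrays, against 9.62 and 8.77 in wildtype arrays (-0.93, interval -1.77 to -0.09). Its wildtype arrays differ by nearly as much as the genotypes do. It stood at -0.51 without wildtype replicate 1 and at -1.35 without wildtype replicate 2. Clusters 6871081 (-0.69) and 6871052 (-0.63) followed, each with 1 knockout array much lower than the other. At the ends of the ID ranges, the outermost members inside stood at -0.14 and -0.11 in the Ltbp3 run and at -0.63 and -0.22 in the Malat1 run, and the nearest unnamed rows outside at 0.09 and -0.23, and at 0.05 and 0.50. One row further out at the low end of the Ltbp3 run, 6867691 averaged 5.04 in knockout arrays and 5.83 in wildtype arrays (-0.80), lower than any member of that run outside the 5 adjacent clusters.

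Of the brightest members, 5 per run, 6871244 described above had the largest difference, and the others lay between -0.22 and 0.24. In the Ltbp3 run these were, besides 6867799, 6867750 (10.44 and 10.44 in knockout arrays, against 10.57 and 10.54 in wildtype arrays), 6867731 (-0.04), 6867809 (0.13) and 6867705 (0.10). In the Malat1 run, besides 6871144 and 6871244, they were 6871217 (-0.08), 6871222 (0.08) and 6871245 (-0.22). Mean log2 signal of the members ran from 4.31 to 10.5 with a median of 5.97, against a median of 5.6 over all rows and 5.51 over the 235923 rows without a symbol. By a filter at the 25th percentile of row means (4.95), 233 of the 276 members would be kept, all of the low clusters named above among them.

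**Figure D4:**
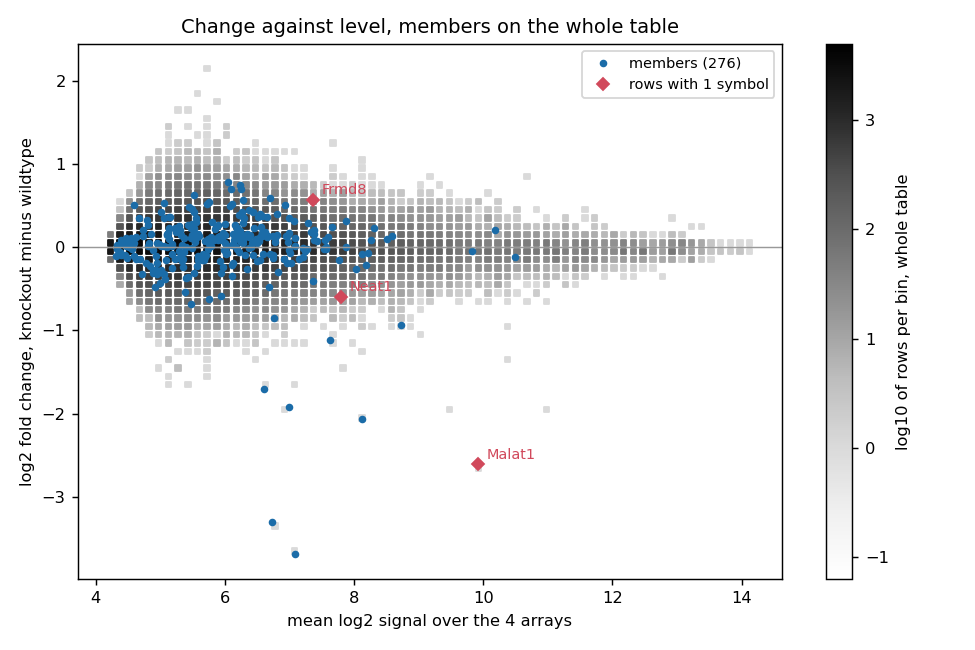
Log2 fold change (y axis, knockout minus wildtype) against mean log2 signal over the 4 arrays (x axis), with the 276 members in blue, Malat1, Neat1 and Frmd8 in red and the density of all rows in grey (log10 of rows per bin). The 5 adjacent clusters lie between -3.69 and -1.70, and with Malat1 at -2.61 they hold most of the lowest positions of the whole table.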

How the data were processed

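Total RNA of 4 hippocampi, 2 knockout and 2 wildtype, was hybridized to exon arrays, per the labels' protocols. The deposited table holds log2 values, judged from their range (4.16 to 14.26), for 265511 transcript clusters. How the authors corrected, normalized and summarized them is not given in the sources used here; as build, the submitters' processing notes name mm9. The platform annotation gives no symbol to 235923 rows.

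Values were used as deposited, without a filter, so that every member was tested. Knockout and wildtype were compared in 1 fit over all rows with limma 3.58.1 (lmFit, eBayes, two-sided, R 4.3.3), genotype as the only term, 2 residual and 2.22 prior degrees of freedom, and Benjamini-Hochberg adjustment over all rows. A test of the fit on simulated data required only the right sign and median size of the changes put in. The number of arrays limits the precision, and the median half-width of the members' 95% intervals was 0.41 (log2).

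Described singly were members within 10 IDs of the middle of each run, members over 1.5-fold in the stretches beside Malat1, the 10 highest and 10 lowest, and the 5 brightest per run. A few further members are named for their place next to these. Members, ID ranges and lists were chosen with earlier results of these data known. Alternatives were 2 filters, 2 rescalings, an intensity trend, a replicate block, each array left out, a narrower ID window and the inclusion of rows with several symbols. Of the fixed tissue markers, Hbb-b1 and Myh6 had no singly named row.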

Additional observations from a re-analysis of the deposited data

How the results depend on the processing

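With 2 arrays per group and no stated normalization, sizes of single values are uncertain. The limma p-values set the genotype difference against the spread between 2 animals of a genotype, with a variance shared in part across rows. The 5 adjacent clusters stood at -1.60 or lower in all alternatives run, and 6 or 7 members were over 2-fold lower. The count of members past the adjusted threshold was 0 under all alternatives. The replicate number was not shown to pair animals (correlation of same-numbered deviations 0.01 over all rows). With the replicate block, 13 members were lower and 16 higher at an unadjusted p under 0.05, against 14 and 11 without it.

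The median of the Malat1 run, 0.06, was 0.0811 and 0.0817 with filters at the 25th and 50th percentile of row means, 0.0491 with array medians set equal and 0.0286 within 50 IDs of the middle. Leaving out 1 array, it ran from 0.0334 to 0.0619. Members higher at an unadjusted p under 0.05 numbered 7 with the filter at the 50th percentile and 11 to 20 with 1 array left out, and members over 2-fold higher 0 to 4, both highest without wildtype replicate 2. Within 50 IDs of the middle, 9 members were lower and 4 higher at that p; fewer members are counted there.

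Of the 53 members described singly, 37 kept their sign in all alternatives and 16 did not. With 1 array left out, the sign-changing values ran from -0.22 to 0.14 (6867731), -0.14 to 0.53 (6867784), -0.0116 to 0.0754 (6867787), -0.16 to 0.40 (6867789), -0.49 to 0.17 (6867790), -0.0465 to 0.45 (6867799), -0.0824 to 0.0384 (6867800), -0.0467 to 0.22 (6867803), -0.0852 to 0.35 (6867809), -0.22 to 0.39 (6871137), -0.0165 to 0.11 (6871140), -0.10 to 0.21 (6871148), -0.27 to 0.11 (6871151), -0.21 to 0.23 (6871155), -0.0211 to 1.07 (6871160) and -0.00489 to 0.17 (6871222), and from -0.0149 to 0.11 for the dimmer Neat1 row. Cluster 6871155 stood at -0.00338 with quantile normalization and at -0.00451 with array medians set equal. The cause of these shifts was not tested.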

Other observations

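Catsperz, a gene of the sperm ion channel, is the landmark row of the Ltbp3 run with the highest log2 fold change, 0.89 (6.49 and 6.33 in knockout arrays, against 5.49 and 5.54 in wildtype arrays). Its gene lies on the minus strand in RefSeq while most landmarks of that run lie on the plus strand. The 3 members that follow it in ID order also lay above 0. Cluster 6867876 read 5.15 and 5.31 in knockout arrays, against 4.88 and 4.88 in wildtype arrays (0.35), and 6867877 read 5.35 and 5.28 in knockout arrays, against 4.91 and 5.0 in wildtype arrays (0.36), while 6867878 stood at 0.15 with overlapping groups. None passed the adjusted threshold by limma (adjusted p = 0.847 for Catsperz), and these rows were picked after their values were seen.

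The longest stretch of members without a landmark runs from Ppp2r5b to Slc22a12, a urate transporter gene. It holds 33 members, of which 24 lay above 0 and 9 below, with a median of 0.08. Above 0 lay 51.5% of all rows and 72.1% of the rows with 1 symbol in the same ID ranges. In 7 of the 33 members both knockout arrays lay above both wildtype arrays, and in 0 below, against 17.7% and 15.7% of all rows.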
